A study of Mus musculus with 23 samples.

Results

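The mitochondrial ribosomal proteins were examined as one family of 77 genes among the 14500 rows of a table of gene expression in the tibialis anterior, the fast muscle along the shin, of female C57BL/6 mice. Members were the protein-coding rows whose symbol begins with Mrpl (large subunit, 48 genes) or Mrps (small subunit, 29 genes) followed by a digit, and a 78th annotated gene of this kind was not analysed here. Genotype, treatment and zeitgeber time (ZT) divide the 23 libraries into 8 groups. RE-RE mice are Bmal1(stopFL/stopFL), a blocked form of the clock gene, together with 2 transgenes. One is Hsa-Cre(-/tg), which lifts the block in skeletal muscle, and the other is Syt10-Cre(-/tg), which lifts it in neurons, the suprachiasmatic nucleus among them, while other cells keep the block. The other mice are wild-type. The 6-OHDA muscles received repeated intramuscular doses of 50 mg/kg 6-hydroxydopamine, which kills sympathetic nerve endings, and the sham muscles were left uninjected, so that the toxin and the injections cannot be told apart. RE-RE mice gave 2 libraries per treatment and time, at 12 to 18 weeks of age for 6-OHDA and 10 to 11 weeks for sham. Wild-type mice gave 4 libraries of 6-OHDA muscle at ZT12, 4 at ZT0, 3 of sham muscle at ZT12 and 4 at ZT0, at 12 to 16 weeks for 6-OHDA and 12 to 18 weeks for sham, where ZT0 is lights on and ZT12 lights off. Libraries are called by the numbers in their labels, which run on through ZT0 and ZT12 within a genotype and treatment.

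The mitochondrial ribosome makes the few proteins encoded in mitochondrial DNA, all of them core subunits of the respiratory chain and of ATP synthase. Its RNAs are transcribed inside the organelle, whereas all of its proteins are encoded in the nucleus, made in the cytosol and imported. The small subunit holds the messenger RNA and the decoding centre, and the large subunit joins the amino acids and sits at the inner membrane with its exit tunnel. Skeletal muscle fibres depend on this system for oxidative capacity.

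Values are FPKM, fragments scaled to exon length and library depth, and differences are on the deposited log2(FPKM + 0.01) scale. A member is called changed where limma's Benjamini-Hochberg adjusted p over 12855 genes is under 0.05, and all 77 members passed the filter for low values. The labels do not say whether libraries are separate mice, so p-values measure the spread between libraries. Recovered reads came to between 21139200 and 36061800 per library, of which 92620 to 158721 fell on the members. The 11 defining markers of fast fibres summed to 44761 to 87632 FPKM, so that they were high in every library. Among RE-RE libraries 3 stood apart. Sham libraries 1 and 3 had the highest ratios of recovered reads to the deposited scale (1.47 and 1.52, against 0.839 to 1.36 elsewhere), and 6-OHDA library 2 had the lowest macrophage markers of all libraries (19.9 FPKM). Within groups the median SD of a member was 0.398 log2 units for RE-RE and 0.182 for wild-type, so that the single spread per gene in the fit understates the error of RE-RE groups and overstates that of wild-type groups.

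The members were expressed over a wide range. Mean FPKM over all libraries had a median of 20.1 for large subunit genes and 13.1 for small subunit genes. Mrpl42, a large subunit protein found only in mitochondrial ribosomes, stood far above the others at 281 FPKM. Mrps28 (66.9), Mrps21 (64.2), Mrpl14 (51.2) and Mrpl18 (50.8) followed. The lowest were Mrpl19 (3.46), Mrps25 (3.46), Mrps35 (3.79), Mrps10 (4.47) and Mrps22 (5.13 FPKM). Within a library the mean log2 level of the large subunit exceeded that of the small subunit by 0.41 to 0.60 in all 23 libraries.

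**Figure D1:**
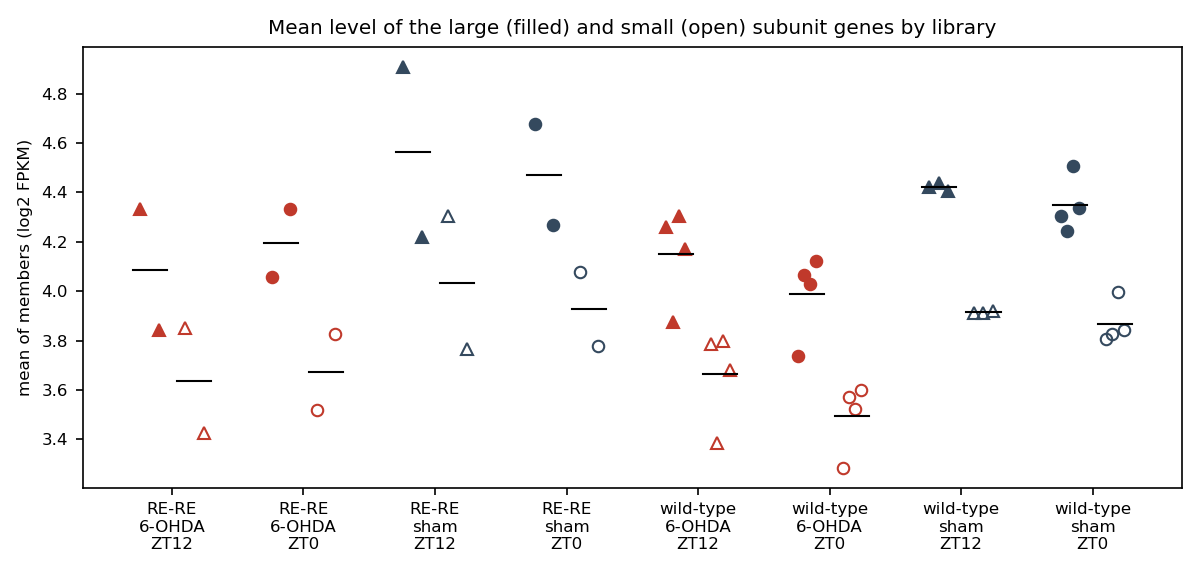
Mean log2 FPKM of the 48 large subunit genes (filled) and the 29 small subunit genes (open) in each library, by genotype, treatment and time, with 6-OHDA in red, sham in dark blue and group means as bars. On the deposited scale the small subunit sits lower in all 8 wild-type 6-OHDA libraries than in any wild-type sham library, the large subunit does so in all but libraries 5 and 7, and RE-RE libraries of 1 group lie far apart.

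In wild-type muscle treated with 6-OHDA most of the family was lower on the deposited scale, with a members' median of -0.33 log2 units, but at 0.01 when libraries were scaled to their own totals of recovered reads. Averaged over both times, 33 of 77 members fell and 0 rose, against 15.9% of all genes tested that fell and 18.8% that rose. The median of all genes tested was -0.04. Of the subunits, 19 of 48 large subunit genes (median -0.32) and 14 of 29 small subunit genes (median -0.34) passed the test. Single members ranged between -0.76 and 0.09, and 73 of 77 had a negative sign. A lower level in whole muscle may come from fewer cells of a type or from less RNA per cell, which cannot be told apart here. Without wild-type 6-OHDA libraries 1, 3 and 6, which had the highest macrophage markers, 0 members passed limma's test at this threshold, and the median was -0.23. Leaving out 1 library at a time left 18 to 34 calls, with the fewest without 6-OHDA library 1 or 6.

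**Figure D2:**
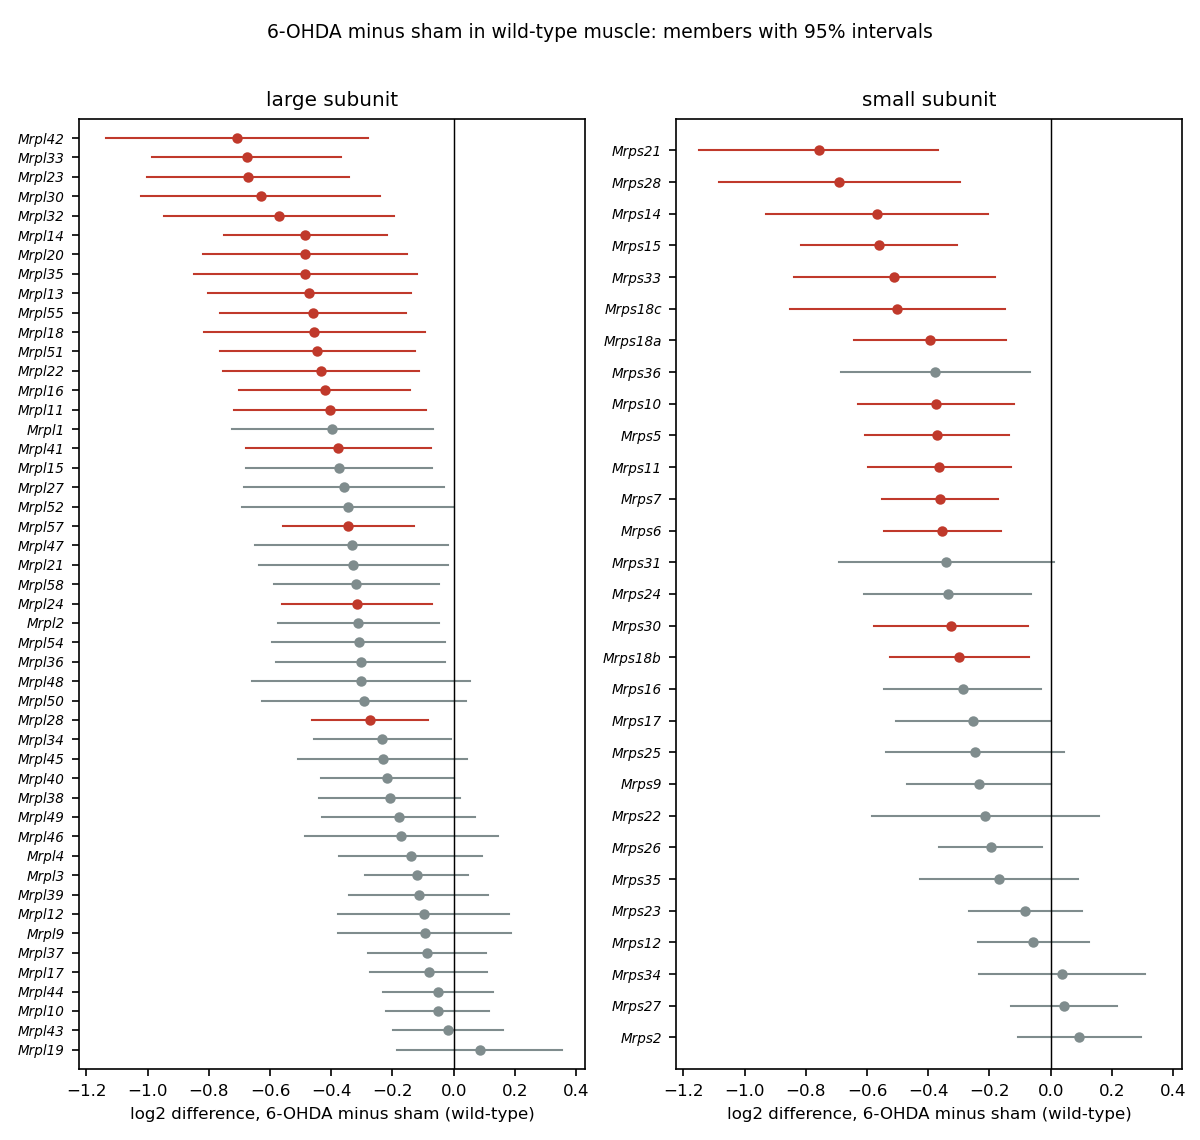
Difference of 6-OHDA minus sham in wild-type muscle (log2 units on the deposited scale, mean of both times) for each member, with the limma 95% interval, large subunit at left and small subunit at right. Red marks the 33 members past an adjusted p of 0.05, all to the left of 0, and Mrpl19, Mrps34, Mrps27 and Mrps2 are the 4 members to the right of 0.

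Mrps21, a small subunit protein related to bacterial S21, fell the most. It had 28.9, 39.0, 42.0 and 54.4 FPKM in 6-OHDA muscle at ZT0 and 56.7, 33.5, 53.4 and 49.4 at ZT12, against 69.6, 72.0, 87.9 and 77.9 in sham muscle at ZT0 and 75.7, 62.1 and 75.6 at ZT12. Every 6-OHDA library was below every sham library. Mrps21 fell by 0.76 log2 units (SE 0.19, limma adjusted p = 0.0058). Mrps28, a further small subunit protein, had 31.3, 42.7, 44.8 and 54.6 FPKM in 6-OHDA muscle at ZT0 and 56.0, 39.96, 54.5 and 58.7 at ZT12, against 69.6, 68.7, 95.9 and 74.7 in sham muscle at ZT0 and 75.2, 79.7 and 70.4 at ZT12. Its groups did not overlap either, and it fell by 0.69 (SE 0.19, limma adjusted p = 0.0098). Mrps15, which binds the small ribosomal RNA early in assembly of the bacterial subunit, had the smallest p of the family. It had 19.1, 21.7, 21.9 and 26.4 FPKM in 6-OHDA muscle at ZT0 and 28.8, 20.6, 26.1 and 26.8 at ZT12, against 37.6, 34.0, 37.4 and 34.8 in sham muscle at ZT0 and 34.5, 34.7 and 32.9 at ZT12. All 8 values of 6-OHDA muscle lay under the lowest sham value, and Mrps15 fell by 0.56 (SE 0.12, limma adjusted p = 0.0030). Mrps14, related to bacterial S14, averaged 10.3 ± 1.8 FPKM in 6-OHDA and 16.4 ± 2.9 in sham muscle at ZT0 (SD, n = 4 each) and fell by 0.57 (SE 0.17, limma adjusted p = 0.018).

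Among large subunit genes Mrpl42 fell the most. Mrpl42 had 142, 191, 180 and 241 FPKM in 6-OHDA muscle at ZT0 and 245, 163, 238 and 223 at ZT12, against 316, 257, 404 and 346 in sham muscle at ZT0 and 318, 371 and 292 at ZT12. The ranges came close without overlap, and Mrpl42 fell by 0.71 log2 units (SE 0.20, limma adjusted p = 0.013). Mrpl33, related to bacterial L33, had 3.65, 4.03, 4.55 and 4.58 FPKM in 6-OHDA muscle at ZT0 and 5.52, 4.03, 4.97 and 4.58 at ZT12, against 5.73, 6.29, 8.04 and 7.06 in sham muscle at ZT0 and 6.997, 8.74 and 7.05 at ZT12. No 6-OHDA library reached a sham library, and Mrpl33 fell by 0.68 (SE 0.15, limma adjusted p = 0.0031). Mrpl23, a protein at the exit of the tunnel through which new chains leave, had 17.2, 25.7, 24.2 and 28.6 FPKM in 6-OHDA muscle at ZT0 and 30.6, 19.9, 28.6 and 25.2 at ZT12, against 34.9, 38.0, 46.3 and 39.4 in sham muscle at ZT0 and 37.8, 38.3 and 40.8 at ZT12. The groups were again apart, with a fall of 0.67 (SE 0.16, limma adjusted p = 0.0046). Mrpl30 fell by 0.63 (SE 0.19, limma adjusted p = 0.015), and 6-OHDA library 5 (25.2 FPKM) reached sham library 2 (25.1 FPKM). Mrpl32, which is matured by a protease of the inner membrane, fell by 0.57 (SE 0.18, limma adjusted p = 0.020), also with ranges that overlap. In all, 10 members had every 6-OHDA library below every sham library over both times, as had 5.85% of all genes, and these were Mrpl13, Mrpl20, Mrpl23, Mrpl33, Mrpl42, Mrpl51, Mrps14, Mrps15, Mrps21 and Mrps28.

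Within a functional site some members passed the test on the deposited scale and others did not. Under own totals 6 of the 33 members called lower stayed called. At the stalk that recruits translation factors, Mrpl11 fell to 9.48 ± 1.66 FPKM in 6-OHDA muscle, against 12.4 ± 0.935 in sham muscle (SD, n = 8 and 7, difference -0.40, limma adjusted p = 0.043). Its partners did not pass, with -0.05 (95% interval -0.22 to 0.12) for Mrpl10 and -0.10 (-0.38 to 0.18) for Mrpl12, which binds Mrpl10 and has also been described as a partner of the mitochondrial RNA polymerase. Around the peptidyl transferase centre and the upper tunnel Mrpl16 fell by 0.42 (limma adjusted p = 0.022), whereas Mrpl2 (-0.31), Mrpl3 (-0.12) and Mrpl4 (-0.14) did not pass, with limma adjusted p of 0.060, 0.25 and 0.34. At the tunnel exit Mrpl24 fell by 0.32 beside Mrpl23 (limma adjusted p = 0.042), but was at 0.018 under own totals, with 26.3% of its exon bases shared with another gene. Mrpl45, which helps anchor the ribosome to the membrane, was at -0.23 and Mrpl44, which has the fold of an RNase III, at -0.05 (limma adjusted p 0.18 and 0.66). Mrpl58, which has the fold of a release factor and frees stalled chains, was at -0.32 (limma adjusted p = 0.062). Whether members of a site differed from one another was not tested.

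In the small subunit Mrps7 and Mrps11, proteins of the head and the platform, both fell by 0.36 on the deposited scale (limma adjusted p = 0.0066 and 0.018). Mrps12, the protein of the decoding centre, had 22.0, 28.6, 26.5 and 23.8 FPKM in 6-OHDA muscle at ZT0 and 27.3, 20.9, 26.2 and 29.1 at ZT12, against 25.2, 24.2, 26.1 and 24.7 in sham muscle at ZT0 and 26.8, 25.8 and 31.1 at ZT12. The 6-OHDA values of Mrps12, 20.9 to 29.1, overlapped the sham values, 24.2 to 31.1, and its difference was -0.06 (95% interval -0.24 to 0.12). Mrps16, Mrps22 and Mrps34, in which human mutations cause mitochondrial disease, were at -0.29, -0.21 and 0.04, with limma adjusted p of 0.074, 0.36 and 0.85. The 3 paralogs of bacterial S18 all fell on the deposited scale, Mrps18a by 0.39, Mrps18b by 0.30 (0.037 under own totals) and Mrps18c by 0.50 (limma adjusted p 0.016, 0.041 and 0.028). Mrps18b and Mrps18c share 30.5% and 23.2% of their exon bases with other genes. In structures of the human ribosome the Mrps18a and Mrps30 proteins sit in the large subunit despite their names, and the counts by subunit here follow the names. Mrps36, now known as a part of the oxoglutarate dehydrogenase complex, was at -0.38 (limma adjusted p = 0.054).

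**Figure D3:**
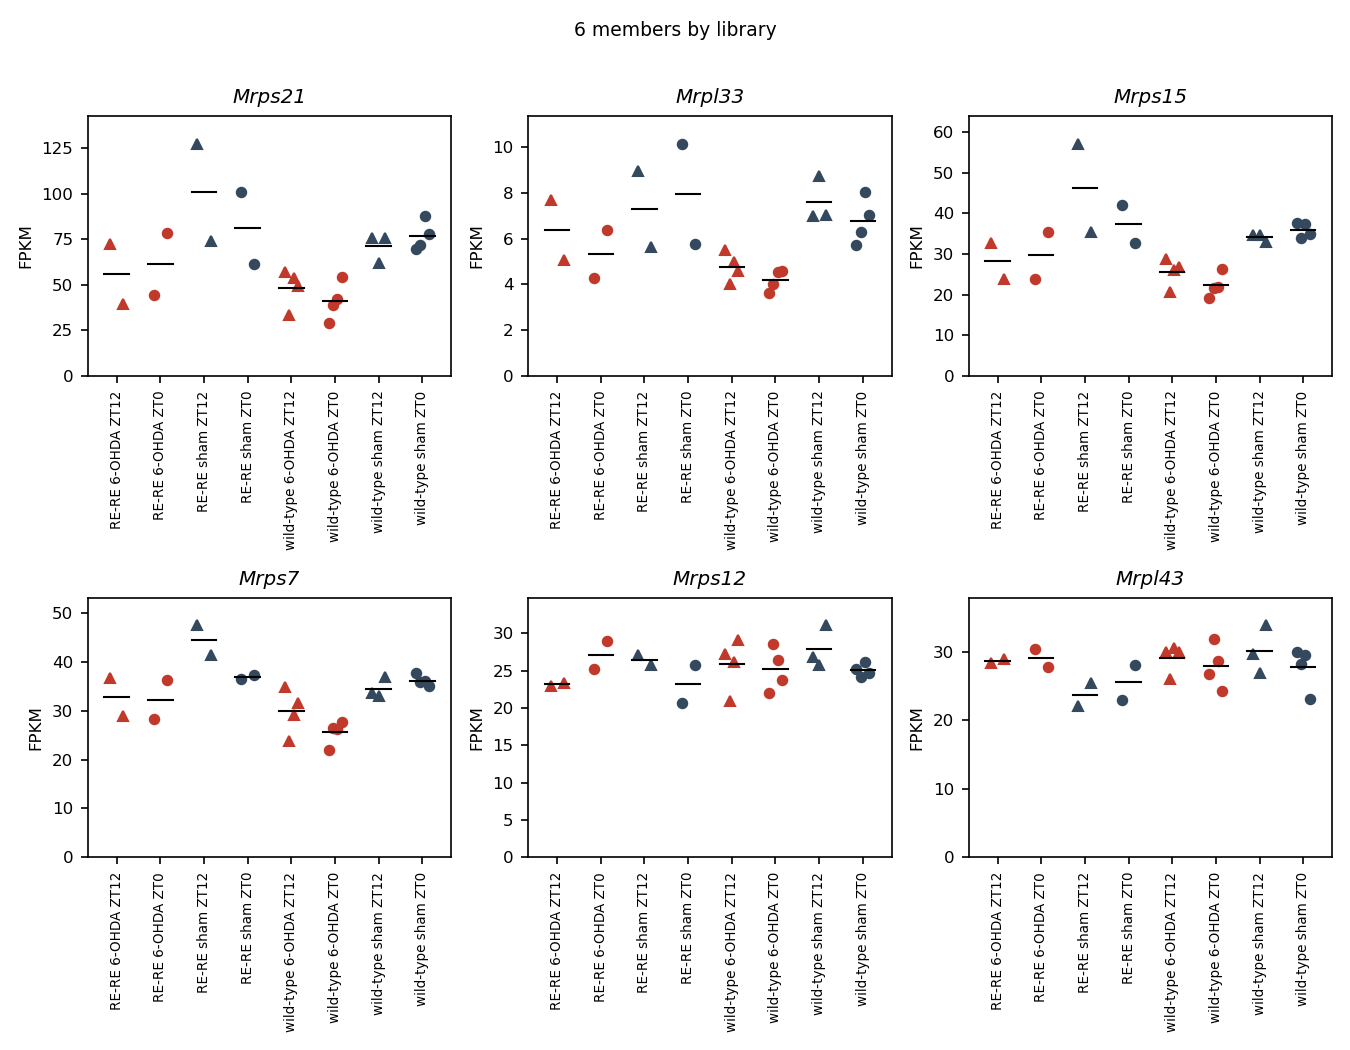
FPKM of 6 members in each library, with 6-OHDA in red, sham in dark blue, triangles for ZT12, circles for ZT0 and group means as bars. On the deposited scale Mrps21, Mrpl33 and Mrps15 are lower in every wild-type 6-OHDA library than in any wild-type sham library, Mrps7 overlaps in 1 library at ZT12, and the wild-type values of Mrps12 and Mrpl43 overlap at both times.

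The size and the sign of these changes depended on how libraries were scaled. On the deposited scale the median of all genes tested was at -0.04, but with libraries scaled to their own totals of recovered reads it moved to 0.29 and the members' median to 0.01, with 6 members called lower and 12 called higher. With the transcripts of the mitochondrial genome left out of those totals, the medians were -0.11 for the members and 0.18 for all genes, with 8 members called lower and 3 higher. Relative to the median of all genes the members stood at -0.285 on the deposited scale, at -0.283 under own totals, at -0.284 without mitochondrial transcripts and at -0.182 after quantile normalization. A single factor per library moves the members and all genes alike. The gap could therefore hardly differ between these scalings, except after quantile normalization. Of the 33 members called lower as deposited, 29 kept a negative sign under own totals, and 6 stayed called. A voom fit on the recovered reads, which keeps the deposited scale, called 36 members lower and 0 higher. The members' share of recovered nuclear reads ran over 0.390% to 0.512% in wild-type 6-OHDA muscle and 0.475% to 0.560% in wild-type sham muscle, so these ranges overlap.

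**Figure D4:**
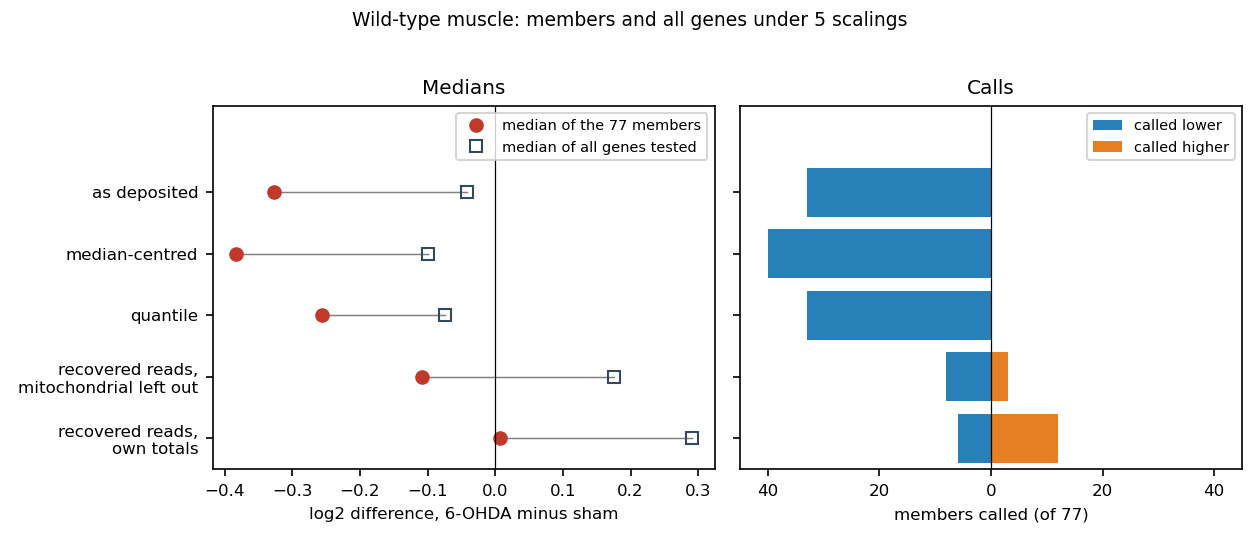
Left, median difference of 6-OHDA minus sham in wild-type muscle (log2 units) for the 77 members (red) and all genes tested (open squares) under 5 scalings. Right, the number of members called lower and higher, from 33 and 0 as deposited to 6 and 12 under own totals. The members' median is below that of all genes by 0.182 after quantile normalization and by up to 0.285 under the other scalings. Those use a single factor per library, which moves both medians alike.

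Other measures of the same libraries differed between the treatments as well. Macrophage markers summed to 153 to 536 FPKM in wild-type 6-OHDA muscle and 26.7 to 71.1 FPKM in wild-type sham muscle, with 9 of 10 markers called higher and none at 0 in any library. In wild-type 6-OHDA muscle 8 of 8 matrix markers, 8 of 9 markers of regenerating fibres and 5 of 6 of slow fibres were also higher, and 6 of 11 fast-fibre markers were lower with 2 higher. Of all genes 18.8% were called higher and 15.9% lower. Cdk1, Mki67 and Top2a of cycling cells (2.38, 2.32 and 2.24 log2 units) and Pecam1 of endothelium (0.78) were called higher as well. So were Plin1 and Adipoq of adipocytes and S100b, Sox10 and Mbp of Schwann cells, while Hbb-bt, Hba-a1 and Hbb-bs of red cells were lower. Transcripts of the mitochondrial genome took 7.31% to 15.3% of recovered reads in wild-type 6-OHDA muscle and 15.3% to 21.2% in wild-type sham muscle. The 2 lowest member means among wild-type libraries, 3.57 and 3.69 log2 FPKM, belonged to 6-OHDA libraries 1 and 6, with mitochondrial shares of 7.31% and 9.90%. The order was not the same throughout, since 6-OHDA library 3 had a share of 8.04% and the highest macrophage sum with a member mean of 3.84, and 6-OHDA library 2 had 9.87% with a mean of 3.88. The member means are on the deposited scale and so also move with the scaling of each library. The part of these measures in the members' fall was not tested.

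**Figure D5:**
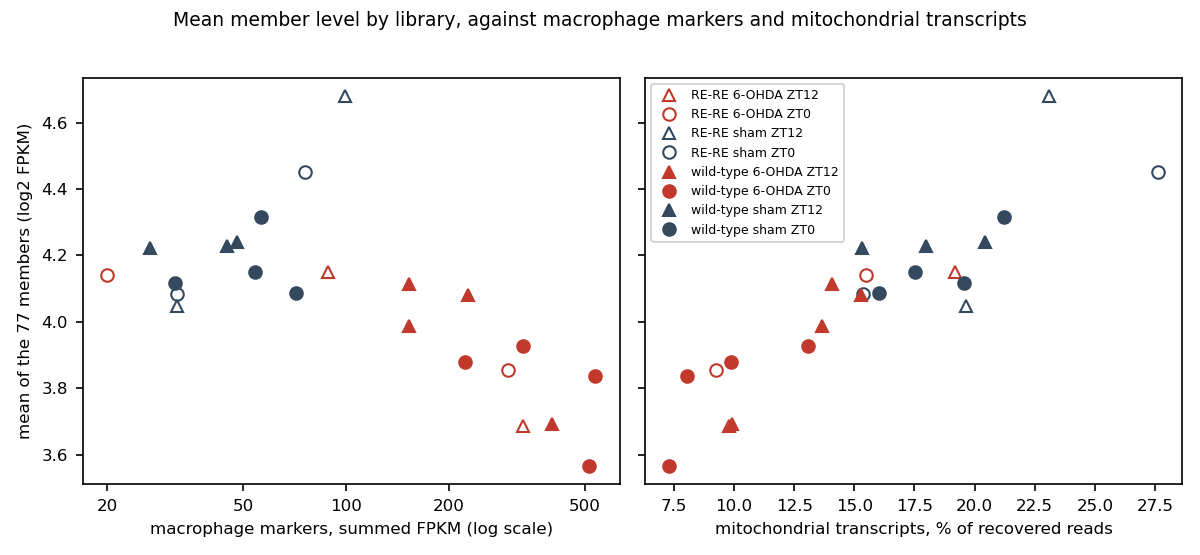
Mean log2 FPKM of the 77 members in each library against the summed FPKM of 10 macrophage markers (left, log axis) and the share of recovered reads from the mitochondrial genome (right), with 6-OHDA in red, sham in dark blue, RE-RE open and wild-type filled. On the deposited scale the library with the lowest mitochondrial share (7.31%) has the lowest member mean (3.57), and the libraries with the highest shares (27.6% and 23.1%) have the highest means (4.45 and 4.68). The same libraries have the lowest (0.839) and the highest (1.47 and 1.52) ratios of recovered reads to that scale. A link between share and level cannot be told apart from the scaling here.

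Taken by time of day in wild-type mice, some single members passed the test at ZT0 on the deposited scale, and the family as a whole was not tested. There 19 members fell and 0 rose, against 10.2% of all genes that fell and 13.6% that rose, with a median of -0.37 for members and -0.05 for all genes. All 19 were also among the 33 called over both times. Mrps6 had 7.58, 8.77, 8.23 and 8.75 FPKM in 6-OHDA muscle, against 13.9, 12.1, 12.7 and 10.1 in sham muscle, with no overlap and a fall of 0.54 (SE 0.12, limma adjusted p = 0.00998), and 19.9% of its exon bases lie in another gene. Mrps7 had 21.9, 26.4, 26.3 and 27.7 FPKM in 6-OHDA muscle, against 37.7, 35.8, 36.0 and 35.0 in sham muscle, and fell by 0.50 (SE 0.12, limma adjusted p = 0.012). Mrps15 fell by 0.70 and Mrps21 by 0.93 at this time (limma adjusted p 0.011 and 0.016). In 40 of 77 members the ZT0 groups did not overlap with 6-OHDA below sham, against 16.0% of all genes tested. Under own totals the members' median was 0.04 and that of all genes 0.36, with 2 members called lower and 10 higher. Without 6-OHDA library 1 the count of calls was 2, without sham library 3 it was 4, and without 6-OHDA libraries 1 and 3, both highest in macrophage markers, and 6 it was 0.

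At ZT12, 0 members passed in wild-type mice, where 0.0156% of all genes did in either direction, and 6 members had an unadjusted p under 0.05. The members' median was -0.25 and that of all genes -0.03, and 73 of 77 members had a negative sign, but under own totals the medians were 0.01 and 0.23. Mrpl33 was at -0.67 (95% interval -1.12 to -0.22, limma adjusted p = 0.13) and Mrpl23 at -0.60 (-1.08 to -0.11, limma adjusted p = 0.17). In 32 of 77 members the groups did not overlap with 6-OHDA below sham, against 20.6% of all genes. Fitted with array weights, which give noisy libraries less say, 26 members were called lower, and with only the wild-type libraries in the fit 13 were called. The share of all genes called under these fits is not given here, so these counts cannot be set against it. The 6-OHDA effect at ZT12 minus that at ZT0 passed for 0 members and 0.00778% of all genes, and 0 members had an unadjusted p under 0.05. The nearest were Mrps6 at 0.38 (SE 0.18) and Mrps7 at 0.28 (SE 0.18), both with a limma adjusted p of 0.9998, so a difference between the times was not shown.

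In RE-RE muscle treated with 6-OHDA 70 of 77 members had a negative sign on the deposited scale, with a median of -0.39 that was 0.00 under own totals. As deposited 14 members (18.2%) fell and 0 rose, against 14.9% of all genes that fell and 11.8% that rose. The share of members that fell was thus near that of all genes, whose median was -0.02. Mrpl42 had 181, 302, 266 and 128 FPKM in 6-OHDA libraries 1 to 4, against 527, 277, 577 and 284 in sham libraries 1 to 4. Sham libraries 1 and 3 lay far above the rest, and 6-OHDA library 2 lay above sham libraries 2 and 4. Its fall was 0.92 (SE 0.28, limma adjusted p = 0.027). Mrpl50 had 19.0, 24.5, 18.9 and 13.4 FPKM in 6-OHDA muscle, against 45.8, 26.0, 42.4 and 22.1 in sham muscle, and fell by 0.81 (SE 0.22, limma adjusted p = 0.020). Mrpl30 fell by 0.84 and Mrps24, related to bacterial S3, by 0.59 (limma adjusted p 0.027 and 0.026), again with the highest values in sham libraries 1 and 3. Mrps6 was the 1 member whose groups did not overlap with 6-OHDA below sham, as for 1.91% of all genes, with 9.69, 9.32, 10.1 and 11.1 FPKM in 6-OHDA muscle, against 13.2, 11.3, 14.1 and 12.8 in sham muscle, and a fall of 0.36 (SE 0.12, limma adjusted p = 0.042).

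The RE-RE calls depended on single libraries and on the fit. Without the 3 libraries that stood apart 2 members were called (median -0.20), and with 1 library left out the count ran over 0 to 57. It was 0 without sham library 1, sham library 3, 6-OHDA library 1 or 6-OHDA library 4, 30 without 6-OHDA library 2, 35 without 6-OHDA library 3, 44 without sham library 2 and 57 without sham library 4. The share of all genes called with a library left out is not given here. With only the RE-RE libraries in the fit, with array weights, with age as a covariate or with the replicate number as a block, 0 members passed. Same-numbered RE-RE libraries had correlations of deviations of 0.103 at ZT0 and 0.163 at ZT12, where both pairs of a time share 1 value by construction, and 0 of 4 pairs share an age. The ages of the 2 RE-RE treatment groups do not overlap. Under own totals 2 members were called lower and 10 higher, with a median of 0.37 for all genes. Macrophage markers summed to 19.9 to 330 FPKM in RE-RE 6-OHDA muscle and 31.9 to 99.5 FPKM in RE-RE sham muscle, and 0 of 10 macrophage markers passed in limma, with 1 at an unadjusted p under 0.05. In RE-RE 6-OHDA muscle 7 of 9 regenerating-fibre markers, 5 of 6 slow-fibre markers, 3 of 3 tested markers of cycling cells and 3 of 6 of endothelium rose. Of all genes 11.8% rose. In wild-type muscle the tested cycling-cell markers and Pecam1 of endothelium were called higher too. The part of these markers in the result was not tested. Of the 33 wild-type and 14 RE-RE calls 7 were shared, namely Mrpl13, Mrpl18, Mrpl30, Mrpl42, Mrps15, Mrps18b and Mrps6. They make up 21.2% of the wild-type calls, where 18.2% of all 77 members were called in RE-RE muscle. Of the RE-RE calls they make up 50.0%, where 42.9% of all 77 members were called in wild-type muscle. The overlap is thus near the share called in the whole family.

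The 6-OHDA effect in RE-RE minus that in wild-type mice passed for 0 members, where 0.0700% of all genes did, and 2 members had an unadjusted p under 0.05. These were Mrpl19 at -0.51 (SE 0.22, limma adjusted p = 0.29) and Mrps26 at 0.30 (SE 0.14, limma adjusted p = 0.32). Without RE-RE sham library 4, 1 member was called. The 95% interval of this difference had a median width of 0.46 log2 units to either side, so differences within it were not detectable.

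Between the genotypes 0 members passed in sham muscle, where 9.94% of all genes did, and 6 members had an unadjusted p under 0.05. The RE-RE sham mice were 10 to 11 weeks old and the wild-type sham mice 12 to 18 weeks, so genotype and age cannot be told apart in sham muscle. The median difference of RE-RE minus wild-type was 0.15 for members and 0.03 for all genes, and -0.03 and -0.14 under own totals, with 3 members then called lower. Mrps18b had 11.5 and 11.8 FPKM at ZT0 and 17.5 and 10.5 at ZT12 in RE-RE sham muscle, against 9.98, 8.78, 7.49 and 8.82 at ZT0 and 10.3, 10.9 and 11.2 at ZT12 in wild-type sham muscle. The RE-RE values were the higher ones at ZT0, and at ZT12 library 3 lay above and library 4 within the wild-type range, with a difference of 0.37 (SE 0.13, limma adjusted p = 0.072). Mrps26 was at -0.25 (SE 0.10, limma adjusted p = 0.091). Without RE-RE sham library 3 the members' median was -0.04, without library 4 it was 0.32 with 21 members called, and without library 2 it was 0.25 with 6 called, so that the sign changes with a single library. How many of all genes were called in these fits is not given here. In 6-OHDA muscle 0 members passed for RE-RE minus wild-type, where 0.226% of all genes did, and 2 had an unadjusted p under 0.05, Mrps18a at 0.33 and Mrps7 at 0.23 (limma adjusted p 0.47 and 0.53).

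No member passed a test of time of day in limma at an adjusted p of 0.05. For ZT12 minus ZT0 the share of all genes called was 0.109% in RE-RE 6-OHDA muscle, 0.0545% in RE-RE sham muscle, 0.669% in wild-type 6-OHDA muscle and 0.646% in wild-type sham muscle. The members' median was -0.08 in RE-RE 6-OHDA muscle (2 members at an unadjusted p under 0.05), 0.10 in RE-RE sham muscle (0 members), 0.17 in wild-type 6-OHDA muscle (2 members) and 0.05 in wild-type sham muscle (1 member), and the first of these was 0.16 under own totals. In wild-type sham muscle Mrpl41 had 40.8, 50.4 and 38.1 FPKM at ZT12 and 25.0, 29.1, 35.4 and 32.6 at ZT0. The times did not overlap for Mrpl41, and the difference was 0.50 (SE 0.21, limma adjusted p = 0.60). In wild-type 6-OHDA muscle 76 of 77 members had a positive sign on the deposited scale, led by Mrps9 at 0.35 and Mrpl34 at 0.31 (limma adjusted p 0.61 and 0.66), and 5 members were called with array weights. The ratio of recovered reads to that scale was 0.839 to 1.04 at ZT0 and 0.911 to 1.08 at ZT12 in this muscle. A factor per library shifts all members alike, so the shared sign cannot be told apart from the scaling. The wild-type 6-OHDA mice were also 15 to 16 weeks old at ZT0 and 12 to 15 weeks at ZT12, so time and age are not cleanly separated there. In RE-RE 6-OHDA muscle Mrpl3 was at -0.40 and Mrps23 at -0.37 (limma adjusted p 0.29 and 0.36), and in RE-RE sham muscle Mrps11 was at 0.41 and Mrpl2 at 0.37, both with a limma adjusted p of 1.

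Across the 23 libraries most members went up and down together, a description in which all values share the libraries and their scaling. The mean of the large subunit correlated with that of the small subunit with Pearson's r of 0.99, and a member's r with the mean of the others had a median of 0.89. The most coherent were Mrpl51 and Mrpl18, both at 0.98. Mrps34 (-0.53), Mrps2 (-0.35), Mrpl43 (-0.30) and Mrpl38 (0.04) went their own way. For Mrps34, 77.8% of exon bases overlap exons of the neighbours Nme3 and Mapk8ip3, and for Mrpl43, 33.4% overlap Twnk, the mitochondrial DNA helicase, on the opposite strand. Reads there cannot be assigned with certainty, since the counting strand is not given in the sources used here. In all, 9 members share over 20% of their exon bases with another gene, and these include Mrps25 (69.8%), Mrpl19 (36.0%) and Mrps18b (30.5%), whereas Mrps2 and Mrps12 share none. The genes outside the family most like its mean were Chchd2 (r = 0.98), a mitochondrial protein that supports respiration, and Ndufs8, Ndufa11, Atp5h and Ndufa12, subunits of complex I and ATP synthase, with r between 0.978 and 0.981 over 23 libraries.

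The promoters of the family were read from RefSeq (GRCm38.p6), 250 bases before to 50 after each start, for 68 of 77 members with 74 promoters. The ETS core CCGGAAG, on either strand, occurred in 33.8% of them, in 17.4% of promoters of tested protein-coding genes and in 8.86% of all promoters in the table. The NRF1 core GCGCATGCG occurred in 9.46%, 3.59% and 1.75%, and the YY1 core AAGATGGCG in 10.8%, 3.11% and 1.40%. The clock E-box CACGTG occurred in 9.46% of members' promoters, 10.0% of those of tested protein-coding genes and 7.15% of all. The ERR half-site TCAAGGTCA was in 0 of the 74, which says only that these letters are not in these windows. Within the family the ETS core was in 10 of 31 promoters of members called lower and 15 of 43 of the others, and the NRF1 core in 3 of 31 and 4 of 43. The 6 stretches shown let members that fell in wild-type 6-OHDA muscle on the deposited scale be set beside members that did not pass. Each is the 100 bases before the start, 5′ to 3′ on the gene's strand, with matches to a searched motif in capitals. Mrpl22 (chr11:58171564-58171663, + strand), Mrps18a (chr17:46110904-46111003, + strand) and Mrpl20 (chr4:155802778-155802877, + strand) fell.
Mrpl22: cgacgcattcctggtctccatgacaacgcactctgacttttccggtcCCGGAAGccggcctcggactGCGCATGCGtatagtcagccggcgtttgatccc
Mrps18a: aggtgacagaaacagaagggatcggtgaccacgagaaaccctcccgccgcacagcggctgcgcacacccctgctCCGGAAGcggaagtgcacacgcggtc
Mrpl20: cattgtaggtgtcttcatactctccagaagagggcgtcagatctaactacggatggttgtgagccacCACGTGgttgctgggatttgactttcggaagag
Mrpl17 (chr7:105811088-105811187, - strand), Mrpl9 (chr3:94443236-94443335, + strand) and Mrpl43 (chr19:45006443-45006542, - strand) did not pass, with differences of -0.08, -0.09 and -0.02.
Mrpl17: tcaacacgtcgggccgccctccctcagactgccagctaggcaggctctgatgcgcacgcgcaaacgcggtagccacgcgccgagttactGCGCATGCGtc
Mrpl9: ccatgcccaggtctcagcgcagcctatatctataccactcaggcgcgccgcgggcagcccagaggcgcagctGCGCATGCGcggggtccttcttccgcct
Mrpl43: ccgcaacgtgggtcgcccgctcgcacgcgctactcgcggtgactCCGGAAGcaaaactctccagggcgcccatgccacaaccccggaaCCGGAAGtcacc
Mrpl22 holds an ETS and an NRF1 core and fell by 0.43, and Mrpl43 holds the ETS core at 2 places and did not pass. On the deposited scale the same letters thus stand before members of either kind. Mrpl43 had a positive sign under own totals, and 33.4% of its exon bases overlap Twnk. A link between motif and change was not tested.

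Many members start close to the start of a gene on the opposite strand. For 25 of 77 members (32.5%) a protein-coding gene on the opposite strand starts within 500 bases, against 13.5% of tested protein-coding genes. Only the distance between starts was used, so pairs that overlap are included. In wild-type muscle 3 of the 19 tested partners outside the family fell and 1 rose after 6-OHDA, against 15.9% and 18.8% of all genes, with a median of -0.13 for partners and -0.30 for their members. Mrps18b (-0.30) and its partner Ppp1r10 (0.48, limma adjusted p = 0.044), whose starts are 45 bases apart, were called in opposite directions. Mrpl36 (-0.30, limma adjusted p = 0.079) starts 29 bases from the start of Ndufs6, a complex I subunit that fell by 0.65 (limma adjusted p = 0.012). These genes overlap by 30 exon bases. Mrps11 and Mrpl46 have starts 412 bases apart and overlap by 173 exon bases, and Mrpl46 was at -0.17 (limma adjusted p = 0.40).

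Lists of genes that work with the mitochondrial ribosome are given for 6-OHDA minus sham in wild-type muscle on the deposited scale, and their medians lay between 0.06 and 0.34 under own totals, where that of all genes was 0.29. The counts stand beside 15.9% of all genes tested that fell and 18.8% that rose. Of 5 mitoribosomal proteins under other names 2 fell, Chchd1 by 0.64 and Aurkaip1 by 0.46 (limma adjusted p 0.015 and 0.026). Of 23 assembly and rRNA modification factors 8 fell and 0 rose (median -0.21), among them Malsu1, which keeps an unfinished large subunit from joining, by 0.58, Mterf3 by 0.38 and Rbfa, a maturation factor of the small subunit, by 0.31 (limma adjusted p 0.017, 0.0084 and 0.010). Of 14 translation factors 2 fell and 1 rose (median -0.09). The one that rose was Taco1, a translational activator of cytochrome c oxidase subunit I, by 0.55, and Slirp, a stabiliser of mitochondrial mRNAs, fell by 0.58 (limma adjusted p 0.0026 and 0.013). In limma 0 of 17 aminoacyl-tRNA synthetases (median -0.04) and 0 of 12 regulators of mitochondrial biogenesis (median 0.01) passed, with 1 of each list at an unadjusted p under 0.05. Of 10 genes for transcription and upkeep of mitochondrial DNA 4 fell, including Tfb2m, a mitochondrial transcription factor, by 0.52 and Ssbp1, the single-stranded DNA binding protein, by 0.49 (limma adjusted p 0.024 and 0.012).

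Transcripts read by the mitochondrial ribosome and nuclear genes of the complexes it serves had negative medians on the deposited scale and under own totals. Of all genes tested 15.9% fell and 18.8% rose in wild-type muscle, and 14.9% fell and 11.8% rose in RE-RE muscle. Of 13 transcripts of the mitochondrial genome 12 fell after 6-OHDA in wild-type muscle, with a median of -1.18 log2 units (-0.85 under own totals), led by mt-Co3 at -2.38 (limma adjusted p = 0.0026). Of 81 nuclear oxidative phosphorylation subunits 49 fell and 1 rose (median -0.47, and -0.14 under own totals). Of 80 cytosolic ribosomal proteins 17 fell and 1, Rpl3, rose by 1.09 (limma adjusted p = 0.0023), with a median of -0.31 beside the -0.33 of the mitochondrial family (0.02 and 0.01 under own totals). In RE-RE muscle 8 of the 13 mitochondrial transcripts fell (median -1.20), as did 20 of 81 oxidative phosphorylation subunits with 1 that rose (median -0.57), and 1 of 80 cytosolic ribosomal proteins fell and 1 rose (median -0.33). Under own totals these RE-RE medians were -0.82, -0.18 and 0.06.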

How the data were processed

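Total RNA of 23 muscle libraries was sequenced from both ends. The authors' tools, per the submitters' processing notes, include HISAT2 2.1.0 for GRCm38, featureCounts 1.6.2, edgeR 3.30.0, and FastQC 0.11.8 with Trim Galore 0.5.0. The deposited values are log2(FPKM + 0.01), and any factor between libraries is not given in the sources used here. Symbols, positions and lengths are those of GENCODE M21. The fit took genes that reached 1 FPKM in 2 or more libraries, and used limma 3.58.1 in R 4.3.3 (8 group means, eBayes with a trend), and p-values were adjusted over all of them. FPKM means and SD are linear. Reads were recovered from the steps between the lowest values, of which 86.5% to 94.7% came out whole within 0.1 read. The fit was tested on simulated data. Tables were made with pandas 2.3.3 and numpy 2.4.6 in Python 3.11.15, and figures with matplotlib 3.10.9. The members and gene lists were chosen with earlier results of these data known. Named members were the 8 largest falls past the test in wild-type muscle, the 2 to 4 smallest p in each other comparison, the 5 highest and 5 lowest levels, and genes with set roles. Mrps2, Mrpl38, Mrpl43, Mrpl51, the pairs of genes with close starts and the promoters shown were named after their values were seen. Promoter motifs were exact matches. The protein sequences were not used here. Alternatives were other scalings, filters, weights, covariates and libraries left out.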

Additional observations from a re-analysis of the deposited data

Results flagged for a closer look

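In groups of 4 libraries, 1 library stood away from the other 3 in 8 of 144 checks (48 series in 3 groups), where chance gives about 1 in 20. The gap to the nearest library, as a share of the group's range, was past Dixon's 95% critical value in each. In wild-type 6-OHDA muscle at ZT12, library 6 was the low one for Mrps14 (0.882; 8.64 FPKM against 12.62 to 13.3), Mrpl43 (0.876; 26.0 against 30.0 to 30.6), Mrpl14 (0.836; 34.5 against 49.0 to 52.5) and Mrps10 (0.832; 3.33 against 4.27 to 4.48), and library 7 was the high one for Mrps2 (0.864; 7.85 against 6.36 to 6.55). In wild-type 6-OHDA muscle at ZT0, library 1 was low for Mrps24 (0.859; 18.9 against 25.0 to 26.2 FPKM). In wild-type sham muscle at ZT0, library 3 was high for Mrps16 (0.834; 58.9 against 42.1 to 44.6), and library 4 was low for Mrps34 (0.895; 14.4 against 18.9 to 19.5). Mrps12 was lower at ZT12 (22.9 and 23.4 FPKM) than at ZT0 (25.2 and 28.9) in RE-RE 6-OHDA muscle and higher at ZT12 (27.0 and 25.8) than at ZT0 (20.7 and 25.7) in RE-RE sham muscle, and the time difference in 6-OHDA minus that in sham muscle was -0.415 log2 units. That difference was not tested, and each group has 2 libraries.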

How the results depend on the processing

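Of 12 comparisons, 7 had counts of called members that changed by over 1.5 times under some setting. The share of all genes called under each setting is not given here, so a changed count need not be particular to the members. For 6-OHDA in wild-type muscle the count of 33, all lower, became 18 under own totals of recovered reads, most of them higher. Of the 33, 6 were still called lower. The count was 11 with mitochondrial transcripts left out of the total, with 8 of the 33 still called lower. It was 56 with array weights, 56 with only the compared libraries and 0 without the 3 libraries highest in macrophage markers. With the replicate block it was 52 in wild-type muscle, 40 at ZT0 and 0 in RE-RE muscle. Correlations of deviations between same-numbered libraries ran over -0.119 to 0.065 in wild-type and were 0.103 and 0.163 in RE-RE mice, and 1 of 11 pairs shares an age, so a pairing is not shown for wild-type and is unclear for RE-RE. At ZT0 the count of 19, all lower, became 12 (most of them higher), 8, 46, 40 and 0 under the 5 settings named first. At ZT12 the 0 became 26 with array weights and 13 with only the compared libraries. In RE-RE muscle the 14 became 5 after quantile normalization, 7 without mitochondrial transcripts, 2 without the 3 libraries that stand apart, and 0 with array weights, age or only the compared libraries. In sham muscle the genotype comparison gave 3 under own totals and 1 without mitochondrial transcripts or with a GC adjustment, in place of 0. ZT12 minus ZT0 in wild-type 6-OHDA muscle gave 5 with array weights. Leaving out 1 library gave 18 to 34, 2 to 21 (ZT0), 0 to 57 (RE-RE), 0 to 21 (genotype in sham) and 0 to 1 (treatment by genotype), and 0 in the other 7. Under own totals 37 of the 73 members with a negative sign in wild-type muscle turned positive, among them Mrpl10 (0.28), Mrpl3 (0.21), Mrpl24 (0.018), Mrpl44 (0.28), Mrps12 (0.28), Mrps18b (0.037) and Mrpl43 (0.32). Without mitochondrial transcripts 54 of 77 members were negative, and Mrpl44 was at 0.17. The cause was not tested. The libraries left out by markers and the GC adjustment were chosen after seeing the data. The RE-RE groups hold 2 libraries each, which limits their precision.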
